A study of Rattus norvegicus with 6 samples.

Results

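The genes described here are 9 subunits of the integrin family, taken as the rows of the normalized expression table whose symbol is Itgad, Itgal, Itgb2, Itgb7, Itga8, Itga9, Itga10, Itgb4 or Itgb8. They are 9 of the 2125 genes listed in that table, and 4 of them (Itgad, Itgal, Itgb2 and Itgb7) are integrins of leukocytes, whereas the other 5 are receptors of matrix and glial cells. Cells of dorsal root ganglia from Sprague Dawley rats (body weight 120 g) were put in primary culture, and RNA was sequenced. The cultures were kept in neurobasal medium with B-27. The 3 control libraries came from untreated cultures, and the 3 lidocaine libraries from cultures exposed for 24 hours to 5 mM lidocaine hydrochloride, an anaesthetic for local use that acts on voltage-gated sodium channels. All ganglia of the animals were used, and the labels do not say whether replicates were separate cultures or animals, and p-values therefore reflect the spread among these libraries alone, possibly a technical one.

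Integrins are cell surface receptors made of an alpha and a beta chain, and they join the actin cytoskeleton to the matrix or to other cells. The beta 2 chain pairs with alpha L to form LFA-1, which holds leukocytes to ICAM proteins, and with alpha D, a chain of macrophages. The beta 7 chain pairs with alpha 4 or alpha E on lymphocytes. In the ganglion, Schwann cells carry beta 4, a laminin receptor chain that pairs with alpha 6, and glia carry beta 8, which pairs with alpha V and activates latent TGF-beta. Alpha 8, alpha 9 and alpha 10 pair with beta 1 and bind nephronectin, tenascin C and collagens among other ligands.

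The tables hold only genes that the authors selected, and in the authors' deposited table no listed gene has a log2 fold change nearer to 0 than 1.00 or a p-value above 0.0499. Every subunit described here was therefore already selected on these libraries, and its test is a description of size and spread, not independent evidence. Reads recovered in the listed genes numbered 2453051 to 3592141 per library, a share of the library that does not give its depth, and intervals on reads cover counting error only. Libraries of the same group differed by more than sampling noise in every pair (chi-square per degree of freedom 3.26 to 8.38). The samples are labelled as neurons, but of 12 neuron markers only Elavl4 was listed. The defining markers Rbfox3, Tubb3 and Prph were not analysed here, so the label could not be checked against them.

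All 9 subunits fell with lidocaine (limma, Benjamini-Hochberg adjusted p of 4.28e-10 to 0.0245 over 1851 genes kept), leaving 17.8% to 44.7% of the control mean. The fall was 2.23-fold to 4.90-fold on the log2(normalized reads + 1) scale. Of all genes kept, 99.5% passed the same test and 68.6% passed as lower, so passing is near the background. Control and lidocaine libraries did not overlap in any of the 9. Of all genes kept, 1252 (67.6%) were lower without overlap, nearly as many as the 1269 that passed as lower. Lack of overlap is therefore usual for lower genes and does not set the integrins apart. The median log2 fold change was −1.48 for the 4 leukocyte integrins and −1.56 for the 5 matrix and glial integrins, beside −1.25 for all genes kept and −1.59 for the 1269 genes that passed as lower. The integrins thus fell by about as much as other listed genes that were lower. The leukocyte and matrix medians differed by 0.08 on the log2 scale. Per lidocaine library this difference was −0.22, 0.18 and 0.43, so it did not keep one sign over the 3 libraries.

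Rescaling mattered for several members. When the listed genes were rescaled among themselves, by TMM or by median of ratios, the log2 fold changes of all genes kept moved up by a median of 1.26 and 1.17. The share of passing genes that were lower went from 68.9% to 43.8% and 48.2%. Itgb4, Itga9, Itgb7, Itgal and Itgb8 still passed as lower under both, whereas Itgad, Itga8 and Itga10 were lower without passing, and Itgb2 turned to 0.11 under TMM and 0.02 under the median of ratios without passing. Each method sets the centre of the listed genes near 0, and most of these genes were lower.

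**Figure D1:**
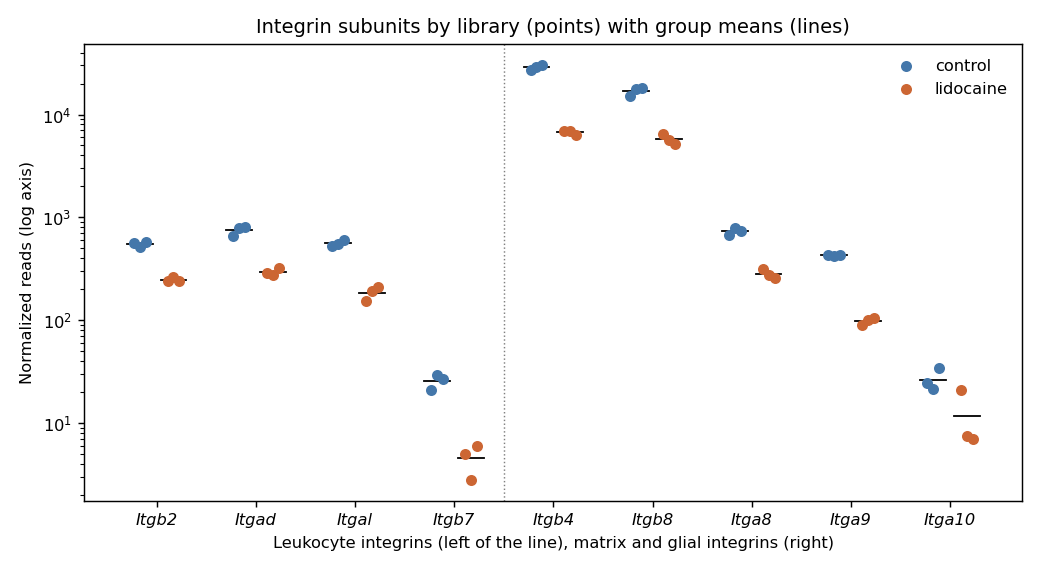
Normalized reads of the 9 integrin subunits (log axis) in each library, with blue points for control, orange points for lidocaine and lines for group means. Every lidocaine point lies below every control point of its gene, with the closest approach in Itga10, at 21.0 against 21.3.

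**Figure D2:**
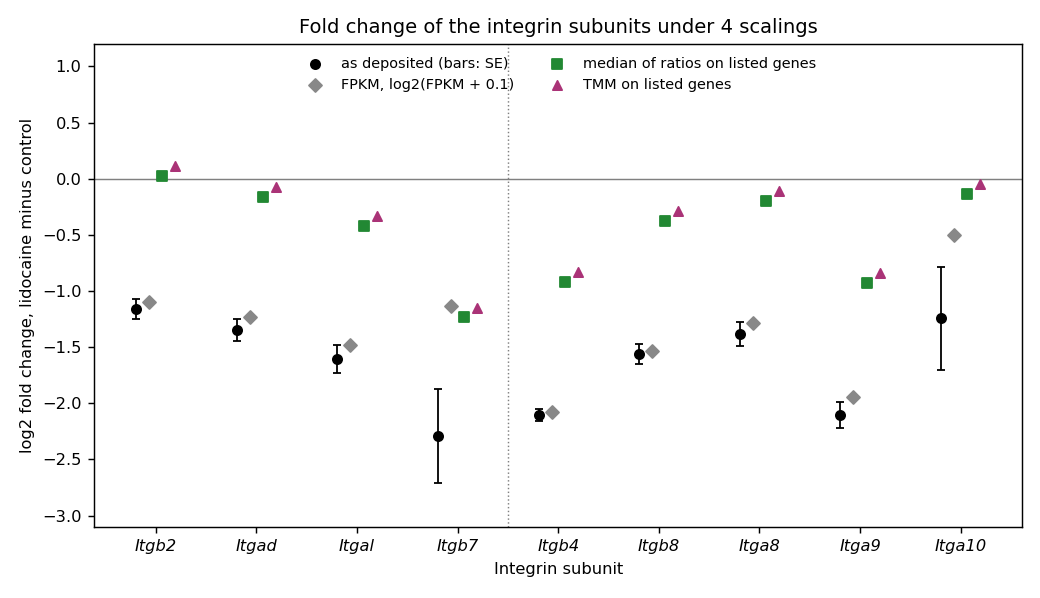
The log2 fold change of each subunit, lidocaine minus control, on the deposited scale with its SE, on FPKM and after rescaling of the listed genes by TMM or the median of ratios. The rescaled values sit about 1.2 higher, Itgb2 crosses 0, and Itgb4, Itga9 and Itgb7 stay between −0.83 and −1.23.

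Among the leukocyte integrins, the shared beta chain had the smallest fold change on the deposited scale. Itgb2 (ENSRNOG00000001224), the beta 2 chain needed for the surface expression of its alpha partners, had 567, 516 and 582 normalized reads in control and 241, 262 and 241 in lidocaine. The lidocaine libraries lay close together, and every one lay well below the lowest control library. Its log2 fold change was −1.16 ± 0.09 (limma, SE over 3 libraries per group, Benjamini-Hochberg adjusted p = 9.40e-07), and its direction turned under both rescalings of the listed genes. Of the genes that passed as lower, 81.6% fell more than Itgb2.

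Its alpha partners had larger fold changes as point values. For Itgad the libraries did not separate this from Itgb2, since the log2 ratio of the 2 genes overlapped between groups (difference −0.19, exact permutation p = 0.3). Itgal (ENSRNOG00000017980), the alpha L chain of LFA-1, had 528, 556 and 606 normalized reads in control and 155, 193 and 210 in lidocaine. The groups were far apart, and the first lidocaine library was the lowest. The log2 fold change was −1.60 ± 0.13 (limma, SE over 3 libraries per group, Benjamini-Hochberg adjusted p = 9.36e-07). Itgad (ENSRNOG00000019728), the alpha D chain, had 667, 788 and 805 normalized reads in control and 290.0, 276 and 319 in lidocaine. It fell 2.54-fold, with 39.2% of the control mean left, although it did not pass under TMM (limma, adjusted p = 0.544) or the median of ratios (limma, adjusted p = 0.160). Itgad lies next to Itgax, a related integrin chain, in the reference gene table (assembly GRCr8), and the labels do not say how the authors counted reads that such copies share.

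Itgb7 (ENSRNOG00000012208), the beta 7 chain of gut-homing lymphocytes, was rare. Its normalized reads were 20.9, 29.6 and 27.1 in control and 5.00, 2.81 and 6.02 in lidocaine. These values rest on 76 reads over the 3 control and 14 over the 3 lidocaine libraries, a ratio of 5.57 corrected for depth with an exact 95% interval of 3.12 to 10.7 for counting error. The log2 fold change of −2.29 ± 0.42 (limma, SE over 3 libraries per group, Benjamini-Hochberg adjusted p = 0.000481) had an SE that spans Itgb4 and Itga9. The value was −1.69 with a pseudocount of 5 and −1.13 on the FPKM scale with a pseudocount of 0.1. Itgb4 and Itga9 fell more under both settings. However, each pseudocount exceeds the lidocaine mean of Itgb7 (4.61 normalized reads, 0.0329 FPKM) and compresses its fold change. These settings therefore do not rank Itgb7 against Itgb4 and Itga9. With no pseudocount, 17.8% of the control mean of normalized reads was left for Itgb7, 23.3% for Itgb4 and 23.1% for Itga9. Itgb7 overlaps Znf740 in the reference gene table (GRCr8, whereas the authors' build was rn6). The sources used here do not say whether counting used the strand, so reads of a shared stretch cannot be told apart.

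The matrix and glial integrins included the most abundant members by far. Itgb4 (ENSRNOG00000005580), the laminin receptor chain that anchors Schwann cells to their basement membrane, had 27357, 28952 and 30454 normalized reads in control and 6989, 6907 and 6297 in lidocaine. The groups were far apart, and 23.3% of the control mean was left. The log2 fold change was −2.10 ± 0.05 (limma, SE over 3 libraries per group, Benjamini-Hochberg adjusted p = 4.28e-10), the most precise of the 9. Itgb8 (ENSRNOG00000006569), the chain that releases TGF-beta from its latent complex, had 15201, 17824 and 18070.3 normalized reads in control and 6476, 5676 and 5192 in lidocaine. It fell 2.95-fold, with 33.9% left, and still passed as lower under TMM (log2 fold change −0.29; limma, adjusted p = 0.0106).

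The 3 alpha chains that pair with beta 1 fell 2.37-fold to 4.30-fold. Itga9 (ENSRNOG00000043167), a receptor chain for tenascin C and for VCAM-1, had 430, 420 and 432 normalized reads in control and 90.0, 100.1 and 106 in lidocaine. Both groups were tight, and 23.1% of the control mean was left. Itga8 (ENSRNOG00000016538), the nephronectin receptor chain of fibroblasts and smooth muscle, had 671, 791 and 746 normalized reads in control and 314, 276 and 256 in lidocaine, a 2.61-fold difference that did not pass under either rescaling. In the reference gene table (GRCr8), Itgb2, Itga8 and Itga9 overlap long non-coding RNAs, and reads of a shared stretch could not be told apart without the strand. The authors' build was rn6 and their annotation is not named, so whether these overlaps touched the counts could not be checked.

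Itga10 (ENSRNOG00000021217), the collagen receptor chain best known from cartilage, was near the limit of what the reads can show. It had 24.4, 21.3 and 34.1 normalized reads in control and 21.0, 7.49 and 7.02 in lidocaine, so that the first lidocaine library lay just under the lowest control library. In unscaled reads that order turned, with 21 reads in the first lidocaine and 18 in the second control library. Its log2 fold change was −1.24 ± 0.46 (limma, SE over 3 libraries per group, Benjamini-Hochberg adjusted p = 0.0245). The call was lost without control replicate 1 (limma, adjusted p = 0.0517), control replicate 3 (0.0904), lidocaine replicate 2 (0.0732) or lidocaine replicate 3 (0.0732). Without lidocaine replicate 1 the log2 fold change was −1.72 (limma, adjusted p = 0.00286).

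Levels were compared between genes on the FPKM scale, which divides by gene length. In control, Itgb8 (100.1 ± 9.66 FPKM, SD, n = 3) and Itgb4 (87.6 ± 4.94) stood highest, and their ranges overlapped. Itgb2 followed at 3.61 ± 0.22 FPKM, then Itga9 at 2.83 ± 0.04, Itga8 at 2.58 ± 0.22, Itgal at 2.57 ± 0.19 and Itgad at 2.08 ± 0.21 (SD, n = 3 each). Itga8 and Itgal overlapped, whereas the other neighbours in this order did not. Itgb7 and Itga10 were lowest, at 0.191 ± 0.03 and 0.106 ± 0.03 FPKM. With lidocaine, Itgb8 (34.5 ± 3.95 FPKM) and Itgb4 (20.7 ± 1.23) no longer overlapped. Itga9 came below Itgad, at 0.662 ± 0.06 against 0.826 ± 0.06 FPKM, with no overlap. Itgal overlapped both Itga8 and Itgad in the lidocaine libraries. The means of Itgb7 (0.0329 ± 0.0148 FPKM) and Itga10 (0.0473 ± 0.0342) changed places, but these overlapped.

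**Figure D3:**
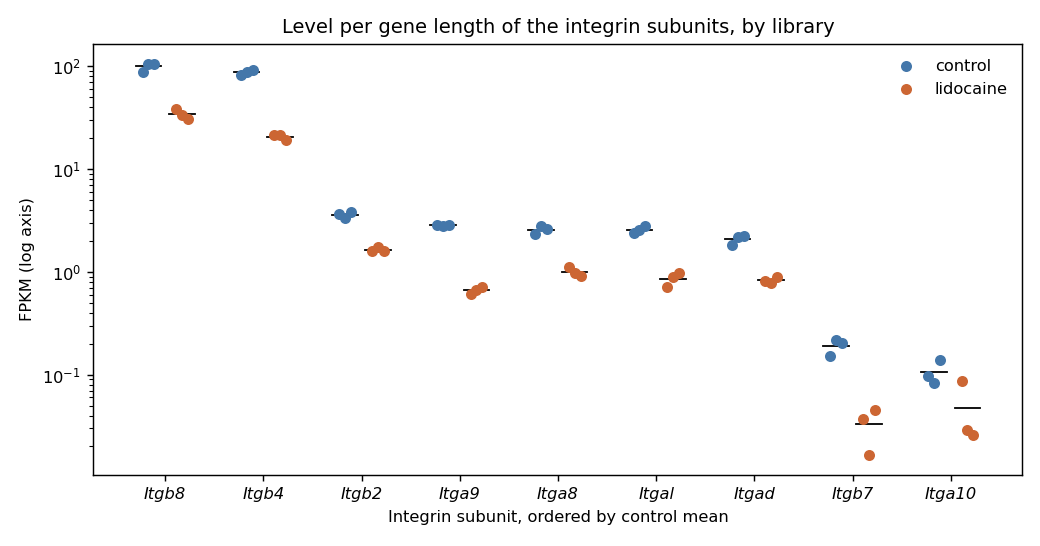
FPKM of the 9 subunits (log axis) in each library, ordered by the control mean, with lines for group means. Itgb8 and Itgb4 stand above 19 FPKM in every library, the middle 5 genes lie between 0.603 and 3.79, and Itgb7 and Itga10 lie under 0.22.

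The ratio of a pair of genes within a library is free of the library scaling, so it shows unequal change between members. The 6 pairs were chosen after the values had been seen, and with 3 libraries per group the smallest p of an exact permutation test is 0.1. The log2 ratio of Itgal to Itgb2, the chains of LFA-1, had a control mean of 0.02 ± 0.11 and a lidocaine mean of −0.42 ± 0.22 (SD, n = 3 each) with no overlap (exact permutation, two-sided, p = 0.1, Benjamini-Hochberg 0.12 over the 6 pairs). For Itgad to Itgb2 the groups overlapped, with a difference of −0.19 (exact permutation p = 0.3, adjusted 0.3) that ranged from −0.29 to −0.10 as libraries were left out. On the FPKM scale, Itgal and Itgad together amounted to 1.15 to 1.40 times Itgb2 in control and 0.960 to 1.17 times in lidocaine.

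Within the matrix and glial group, Itgb4 fell by more than Itgb8, and Itga9 by more than Itga8, in every lidocaine library against every control library. The log2 ratio of Itgb4 to Itgb8 differed by −0.54 and that of Itga9 to Itga8 by −0.72 between groups (exact permutation, p = 0.1, adjusted 0.12 each). In FPKM, the Itgb4 to Itgb8 ratio was 0.837 to 0.927 in control and 0.556 to 0.627 in lidocaine. Csf1r, the macrophage colony-stimulating factor receptor, differed from Itgb2 by −1.73 on the log2 scale, and Prx, a myelin gene of Schwann cells, from Itgb4 by −0.85 (exact permutation, p = 0.1, adjusted 0.12 each). For both pairs every lidocaine library lay below every control library, so Csf1r lost more than Itgb2 and Prx more than Itgb4. No pair can pass the threshold with 3 libraries per group. Prx does not stand for its list, in which Gldn (log2 fold change −5.35) also fell more than Itgb4 (−2.10). The Schwann cell and myelin markers Mbp (−1.90), Mag (−1.82) and Egr2 (−1.42) fell less.

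**Figure D4:**
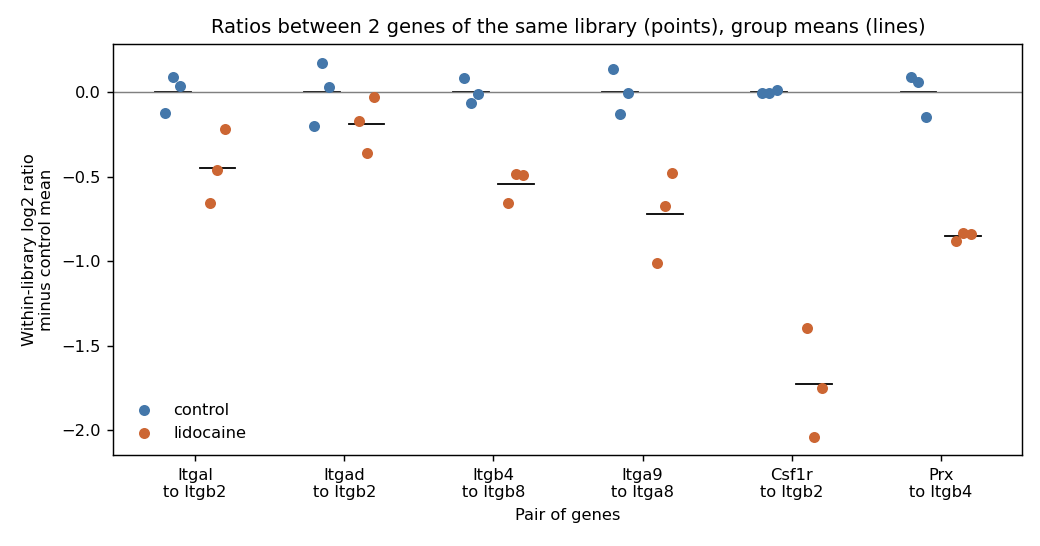
Within-library log2 ratios of 6 gene pairs, shown as the difference from the control mean, with points for libraries and lines for group means. Only Itgad to Itgb2 overlaps between the groups, and Csf1r to Itgb2 shows the largest difference of the 6, −1.73.

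Promoters are given as a description only, and a link of their composition to level or fold change was not tested. Those printed are of the member with the highest FPKM, Itgb8, and of the rarest leukocyte member, Itgb7. Of the 9 subunits, 5 were found in the RefSeq promoter table (GRCr8, 250 bases before to 50 bases after the gene start). Capitals mark matches on either strand to the Sp1 motif GGGCGG, present in 33.1% of 33469 promoters of this length, or to the motif TATAAA, present in 14.2%. The Itgb8 promoter lies at chr6:146351196-146351495 and the Itgb7 promoter at chr7:135239022-135239321, both on the minus strand and printed 5′ to 3′.
Itgb8: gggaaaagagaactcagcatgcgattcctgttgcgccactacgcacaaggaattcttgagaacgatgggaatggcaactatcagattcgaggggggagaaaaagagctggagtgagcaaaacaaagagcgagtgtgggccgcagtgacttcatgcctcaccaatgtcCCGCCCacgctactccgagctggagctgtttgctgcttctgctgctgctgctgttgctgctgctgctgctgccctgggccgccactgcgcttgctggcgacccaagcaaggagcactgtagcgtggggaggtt
Itgb7: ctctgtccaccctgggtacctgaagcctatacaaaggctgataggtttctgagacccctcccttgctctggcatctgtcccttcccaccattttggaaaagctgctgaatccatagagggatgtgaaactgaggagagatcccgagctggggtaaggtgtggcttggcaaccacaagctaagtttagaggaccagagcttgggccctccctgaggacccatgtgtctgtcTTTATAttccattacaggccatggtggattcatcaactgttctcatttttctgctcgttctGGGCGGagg
The Itgb8 window holds 14 CpG sites and 1 match to the Sp1 motif. The Itgb7 window holds 3 CpG sites and 1 match to each of the 2 motifs, beside a median of 7 CpG sites over all promoters. Its GGGCGG match lies in the 50 bases after the gene start. Those bases begin with atg and read on in that frame without a stop codon. The match may therefore be coding sequence, and whether this window holds the site where transcription starts was not tested. The windows of Itga8, Itga9 and Itga10 hold 18, 22 and 6 CpG sites, with 3 matches to the Sp1 motif in Itga9 and 0 in the others. None of the 5 windows holds the ETS motif AGGAAG, present in 34.5% of promoters, or the AP-1 motif TGACTCA, present in 4.63%, on either strand, which says only that these letters are not in these windows.

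Of 26 integrin genes in the family, the 9 described here were listed, and all 9 were lower. The partners Itgam, Itgax, Itga4, Itgae, Itga6, Itgav and Itgb1 were not analysed here, so no heterodimer other than those of Itgb2 with Itgal and Itgad could be followed on both chains. Ligands and adaptors were taken from lists of the adhesion pathway. Of 11 cell surface ligands of leukocyte integrins, 2 were listed and both fell, beside 68.6% of all genes kept that passed as lower. Vcam1, the endothelial ligand that Itga9 shares with the alpha 4 integrins, had a control mean of 854 ± 82.0 normalized reads and a lidocaine mean of 55.6 ± 9.33 (SD, n = 3 each), and Icam2, a ligand of LFA-1, averaged 87.5 ± 18.2 and 13.7 ± 6.01. Their falls of 15.2-fold and 6.28-fold were larger than those of the 9 integrin subunits, a difference that was not tested.

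Of 18 matrix and latent ligands, 7 were listed, of which 5 fell and 2 rose. Osteopontin (Spp1), a ligand of Itga8 and Itga9 among others, fell 3.51-fold. The collagen chains Col6a1, Col4a1 and Col1a1 fell 5.03-fold, 3.05-fold and 2.91-fold. Tgfb3, whose latent form is bound by the beta 8 integrin, rose 2.27-fold while Itgb8 fell, with means of 2775 ± 99.9 and 6302 ± 16.4 normalized reads (SD, n = 3 each). Col2a1, the cartilage collagen that alpha 10 binds, rose 3.34-fold. Its receptor chain Itga10 was lower on the deposited scale, but on few reads. Itga10 did not pass under TMM (log2 fold change −0.05, limma, adjusted p = 0.947) or the median of ratios (−0.13, limma, adjusted p = 0.849). Of 14 genes of TGF-beta activation and response, 3 were listed and all 3 fell, beside 68.6% of all genes kept that passed as lower. They were Tgfbr3, the TGF-beta co-receptor (3.37-fold), Ltbp2, a latent TGF-beta binding protein (4.51-fold), and Nrros, which tethers latent TGF-beta on myeloid cells (2.79-fold), although Nrros did not pass under TMM or the median of ratios.

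Of 29 adaptors that couple integrins to actin, 3 were listed. Fermt1, the kindlin of epithelial cells, rose 3.78-fold, whereas Lims2, a partner of integrin-linked kinase, fell 5.18-fold and Parvg, the parvin of blood cells, 3.56-fold. Of 21 genes of leukocyte integrin signalling, 5 were listed and passed as lower, at a median of −1.34 (log2 fold change) beside −1.48 for the leukocyte integrins. Over all genes kept, 68.6% passed as lower, and the median was −1.25. The Src family kinases Fgr and Lyn fell 4.95-fold and 2.24-fold, the exchange factor Vav1 4.19-fold and the kinase Syk 2.11-fold, although Lyn and Syk turned to 0.11 and 0.19 under TMM and to 0.02 and 0.10 under the median of ratios, as Itgb2 did. Of the 5 listed genes of this group, 2 passed as lower under either rescaling, Fgr and Vav1.

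The KEGG annotation in the authors' deposited table placed all 9 subunits in regulation of the actin cytoskeleton, where the other 19 genes kept had a median log2 fold change of −1.27, with 16 lower and 3 higher. It placed Itga8, Itga9, Itga10, Itgb4, Itgb7 and Itgb8 in ECM-receptor interaction, where 19 of the other 20 genes kept were lower, with a median of −1.99. Focal adhesion held the same 6 subunits, and among its other 44 genes kept 35 were lower and 9 higher, with a median of −1.62. Cell adhesion molecules held Itga8, Itga9, Itgal, Itgb2, Itgb7 and Itgb8. Among its other 36 genes kept, 30 were lower and 6 higher, with a median of −1.63. Itgal and Itgb2 were placed in leukocyte transendothelial migration, where 20 of the other 24 genes kept were lower and 4 higher, with a median of −1.97. The median of the leukocyte integrins lay nearer to 0 than that of the last group. Beside these counts, 68.6% of all genes kept passed as lower, with a median of −1.25 over all genes kept. The pathway counts are of selected genes on the deposited scale, and were not repeated under the rescalings.

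Markers of most cell types that carry the leukocyte integrins were lower as well, whereas the T and NK cell marker listed, Cd2, was higher. Only genes the authors had selected are listed, and 68.6% of all genes kept passed as lower. Counts of listed markers that fell therefore say little about a cell type on their own. In bulk cultures, fewer cells of a type and less RNA per cell cannot be told apart. Of 12 macrophage markers 10 were listed all of which fell (median −4.47 on the log2 scale), at a summed level of 10883 to 11465 normalized reads over control libraries and 1176 to 1246 over lidocaine libraries. Itgb2, Itgad and Itgal, with −1.16 to −1.60, lay outside the range of these markers, −5.66 to −2.17, whereas Itgb7, at −2.29, lay within it. The far end is Cd163, with 0, 4.68 and 3.01 normalized reads in lidocaine, so its size depends on the pseudocount. C1qb, with no library at 0, reached −5.55. Of 8 neutrophil markers 5 were listed, 3 of which passed the filter on low values, and these 3 fell, with a summed level of all 5 of 153 to 253 and 15.1 to 25.3 normalized reads. Of 5 B cell markers 3 were listed and fell, with sums of 94.2 to 123 and 31.0 to 39.1, although Cd79b turned to 0.19 under TMM and 0.099 under the median of ratios, and only Cd79a still passed as lower under either. Of 11 T and NK cell markers only Cd2 was listed, and it rose, with 37.1 to 53.2 normalized reads over control libraries and 84.2 to 118 over lidocaine libraries. No listed marker of these lists was at 0 in every library of a group, and their part in the fall of the leukocyte integrins was not tested.

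The matrix and glial integrins stood beside markers of Schwann cells, satellite glia, fibroblasts and vessels. Here too the counts that fell stand beside 68.6% of all genes kept that passed as lower. Of 9 Schwann cell and myelin markers 5 were listed and fell (median −1.90, range −5.35 to −1.42), with sums of 32666 to 33493 normalized reads over control libraries and 7871 to 8091 over lidocaine libraries. Of these 5, 3 passed as lower under either rescaling, while Egr2 (limma, adjusted p = 0.236 under TMM and 0.0601 under the median of ratios) and Mag (0.102 and 0.0636) did not pass. Of 5 satellite glia markers 3 were listed and fell, with a median of −1.80 and sums of 11364 to 11721 and 3608 to 3770 normalized reads. Itgb4 and Itgb8, at −2.10 and −1.56, lay within the wide range of the Schwann cell markers and on either side of the narrow range of the satellite glia markers, −1.85 to −1.63. Of 6 fibroblast, 7 mural and 8 endothelial markers, 3, 4 and 6 were listed and all fell, with medians of −3.12, −2.79 and −2.25 on the deposited scale. Of the 4 mural markers, 2 passed as lower under either rescaling. Rgs5 did not pass (limma, adjusted p = 0.376 under TMM and 0.163 under the median of ratios), and Pdgfrb turned to 0.22 under TMM, passing as higher (adjusted p = 0.00544), and to 0.13 under the median of ratios, where it did not pass (adjusted p = 0.0689). The endothelial genes Cdh5 (adjusted p = 0.122) and Tek (0.113) did not pass under TMM (limma). The summed levels of these lists were 92083 to 100037 normalized reads over control libraries and 22223 to 22919 over lidocaine libraries for fibroblasts, 7158 to 7562 and 2121 to 2550.0 for mural cells, and 6456 to 6921 and 1774 to 1873 for the endothelium. Elavl4, the neuron marker listed, fell, with 2421 to 2646 normalized reads over control libraries and 1199 to 1366 over lidocaine libraries, and turned higher under both rescalings. The part of these markers in the fall of the matrix and glial integrins was not tested.

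**Figure D5:**
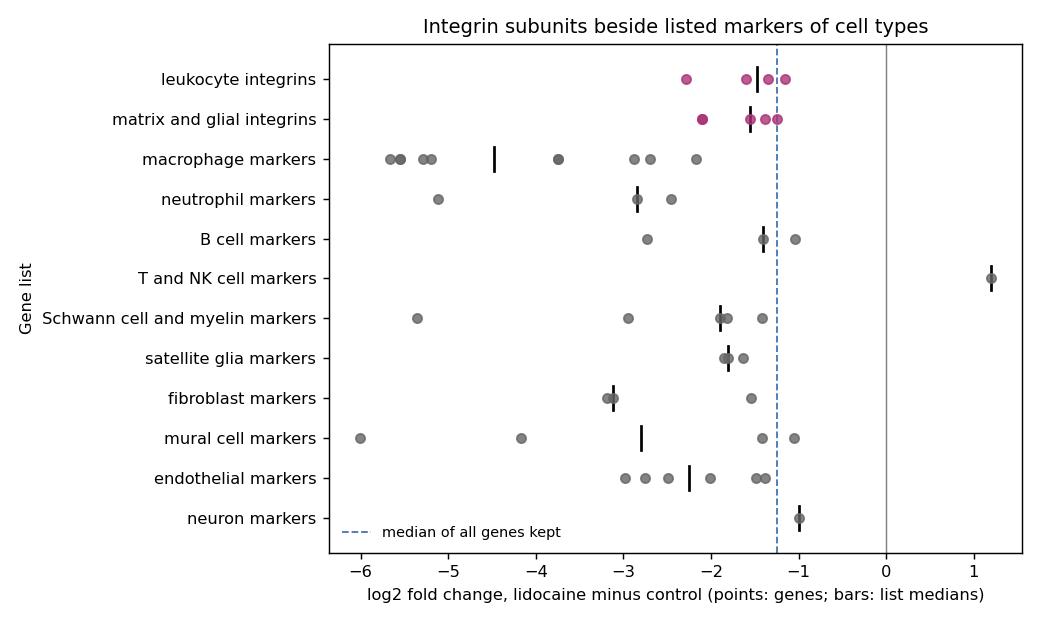
The log2 fold change of each integrin subunit (purple) and of listed cell type markers (grey), with bars for list medians and a dashed line at −1.25, the median of all genes kept. The integrins lie between −2.29 and −1.16, and macrophage markers reach −5.66 (Cd163, with 1 lidocaine library at 0 reads).

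Genes with the most similar pattern were ranked among 1554 listed genes by the root mean square difference of the log2 values over the 6 libraries, after centring on the control mean. For Itgb2 these were Pald1 (0.0427), Dusp26 (0.0453) and Cuedc2 (0.0533). For Itgb4, the matrix and glial member with the most normalized reads before division by gene length, they were Hcls1 (0.0384), Ssc5d (0.0502) and Scube3 (0.0621), where Hcls1 is a Lyn substrate of blood cells. With 2 groups, this likeness mostly reflects a fold change of similar size.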

How the data were processed

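Both tables were deposited for the whole series and hold the same 2125 genes. Per the file headers, the first holds genes called significant by the authors, as log2 values, which from the values themselves are log2(normalized reads + 1). The authors' FPKM values, per the file headers, form the second. The authors' deposited p-values were used only to describe the selection. The submitters' processing notes name Bowtie 0.12.2, DESeq2 and the build rn6 (Rnor_6.0), without roles. Neither annotation nor counter is named there. All 12750 normalized values were whole multiples of 1 factor per library (tolerance 0.02 reads), which gave the reads per gene.

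A filter at a mean of 10 normalized reads kept 1851 genes and removed 274, and all 9 integrin subunits passed it. The deposited log2 values were tested with limma 3.58.1 in R 4.3.3 (variance trend, no replicate block, two-sided tests with Benjamini-Hochberg adjustment and a threshold of 0.05). The design had named a pseudocount of 1, which the deposited values already hold. This step was tested on simulated data in which a minority of genes changed, up and down in equal number. That setting differs from these selected genes, nearly all of which passed and most of which were lower. The simulation therefore does not test the scaling. No count model was run, since the tables give log2 values of a selection. FPKM entered the alternative as log2(FPKM + 0.1). TMM and the median of ratios were computed on recovered reads of the listed genes in Python 3.11.15, and exact tests used scipy 1.17.1. Alternatives also covered pseudocounts of 0.5 and 5, the filter, the trend, a replicate block, each library left out and, added after seeing the data, adjustment over all 47357 genes of the reference table. All 9 subunits were named, with up to 4 members of each pathway list by smallest adjusted p and the 3 genes most like Itgb2 and Itgb4. Tgfb3 and Col2a1 lie outside this rule, and they and the gene pairs were chosen after values were seen. The members and lists were chosen with earlier results of these data known.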

Additional observations from a re-analysis of the deposited data

Results flagged for a closer look

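For 9 of the 9 integrin subunits, the lidocaine group value that the authors deposited with the FPKM data lay above the mean of its 3 libraries, and the corresponding value for control was equal to its mean. For Itgb2 the group value was 5.11 FPKM beside a mean of 1.64 over the libraries, and for Itgb4 it was 88.6 beside 20.7. In 8 of the 9 the group value for lidocaine was also above that for control (3.61 FPKM for Itgb2), which is opposite to every library. The group value entered no comparison.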

How the results depend on the processing

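The number of genes passing over all genes kept (1841) became 1122 under TMM (631 higher, 491 lower), 1142 under the median of ratios (592 higher, 550 lower) and 1068 with a filter at a mean of 100, which tests fewer genes. Of the 9 integrin subunits, 5 passed under TMM and 5 under the median of ratios, and Itgb2 turned to 0.11 and 0.023. The leukocyte median of −1.48 moved to −0.20 under TMM, −0.29 under the median of ratios and −1.18 on FPKM, where the pseudocount of 0.1 compresses Itgb7. The matrix and glial median of −1.56 moved to −0.29, −0.38 and, at a filter of 100 that drops Itga10, −1.83. With libraries left out in turn, 1767 to 1806 genes and 8 to 9 subunits passed, and the medians ranged from −1.55 to −1.41 and from −1.72 to −1.49. When p-values were adjusted over the reference table, Itga10 was lost (limma, adjusted p = 0.628) and the other 8 subunits passed. The replicate numbers did not pair the libraries (correlations of deviations −0.03, 0.01 and 0.06, and not every library correlated best with its own number), and with the replicate block 1842 genes and 9 subunits passed. Itga9, Itgb4, Itgb8 and Itgal kept direction and side of the threshold under all 16 alternatives. The tables hold only selected genes, so which scaling fits all genes was not tested.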
